A study of Canis lupus familiaris with 12 samples.

Results

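CircRNAs are closed RNA loops made by back-splicing, which links the 3′ side of an exon back to the 5′ side of that exon or of one before it. Most circRNAs arise from exons of annotated genes, and the joined ends are ordinary splice sites. A circRNA is called intergenic when its ends lie outside every annotated gene, so the class depends on how complete the gene annotation is, and in a species with a sparser annotation than human or mouse it can also take in circRNAs of genes that the annotation leaves out. In the heart, circRNAs from genes of the contractile apparatus and of calcium handling are abundant.

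The circRNAs described here are the 720 junctions classed as intergenic in the deposited circRNA table, 4.50% of its 15990 circRNAs (median of 2 reads each). Right atrial tissue of mongrel dogs was compared between a pacing group, with an implanted pacemaker that drove the right atrium at 500 beats per minute and 5 V for 14 days, and a control group that had the same operation and pacemaker with no stimulation. The total RNA, depleted of ribosomal RNA, gave 3 pacing libraries (P1, P2, P3) and 3 control libraries (C1, C2, C4), and the unit of measurement was the number of reads that cross each back-splice junction. A library counts here as 1 sample, and since the labels do not state which animal each came from, the p-values measure the spread between these libraries only.

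The C4 library needs a caution before any result. The table names its columns C1, C2, C4 and P1 to P3, whereas the sample labels number all samples with C and give the title C4 to a paced dog. C4 was counted as control because of its column name, and results that turn on it are also given without it. Its mRNAs differed from those of the other libraries. The listed ventricular markers MYL2 and MYL3, light chains of ventricular myosin, summed to 5731 FPKM (fragments per kilobase of transcript, scaled to library depth) in C4, against 5.20 to 188 FPKM in the pacing libraries and 72.8 and 76.4 FPKM in C1 and C2. The atrial markers NPPA (the atrial natriuretic peptide) and MYL4 (the atrial light chain) summed to 27.1 FPKM in C4, against 6642 to 12874 FPKM in the pacing libraries and 2550 to 5882 FPKM in the other controls, while MYL7 and SLN, the other 2 of the 4 markers, were not matched. C1 and C2 stood apart in the fat markers ADIPOQ and PLIN1, which summed to 397 and 168 FPKM there and to 2.39 to 6.05 FPKM in the pacing libraries. The blood marker sum was highest in C2, at 76.7 FPKM. The part of these differences in the results below was not tested.

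The 6 libraries held 22987 to 41299 junction reads, and each pacing library was deeper than any control library. No value of 1 read occurs in the table, so a 0 stands for 0 or 1 read, and a single listed library means at least 2 reads. The sequences of these junctions are not printed, since no genome of the build used, canFam3, was analysed here. Positions below are on canFam3.

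The intergenic circRNAs were rare in reads as well as in number. Together they had 3384 junction reads, 1.85% of all, with a mean of 4.70 reads and a median of 2. Exactly 2 reads in all supported 429 of the 720 (59.6%), and 48 (6.67%) reached 10 reads, against 17.5% of exonic circRNAs. The 12 with the most reads carried 23.3% of all intergenic reads and the 48 carried 40.7%. None was on the mitochondrial genome, where the table classed 31 circRNAs as antisense and 19 as sense overlapping. No intergenic circRNA carried a host transcript or a circBase identifier. The 2 strands had similar numbers, with 338 on the plus strand and 382 on the minus strand.

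The share of each library's junction reads that were intergenic was 1.97% in P1, 1.65% in P2 and 1.99% in P3, against 1.68% in C1, 2.18% in C2 and 1.63% in C4. The 95% Wilson intervals of the single libraries, which cover counting error only, spanned 1.48% to 2.37% at their outer bounds. The pacing libraries averaged 1.87% ± 0.19 and the control libraries 1.83% ± 0.30 (SD, n = 3 each), a difference of 0.04 percentage points, with p = 0.9 in a 2-sided exact permutation test over the 6 libraries, which cannot give less than 0.1. The groups overlapped, and C2, the library with the highest share, was a control. Without C4 the difference was -0.06 percentage points (exact permutation p = 0.8).

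**Figure D1:**
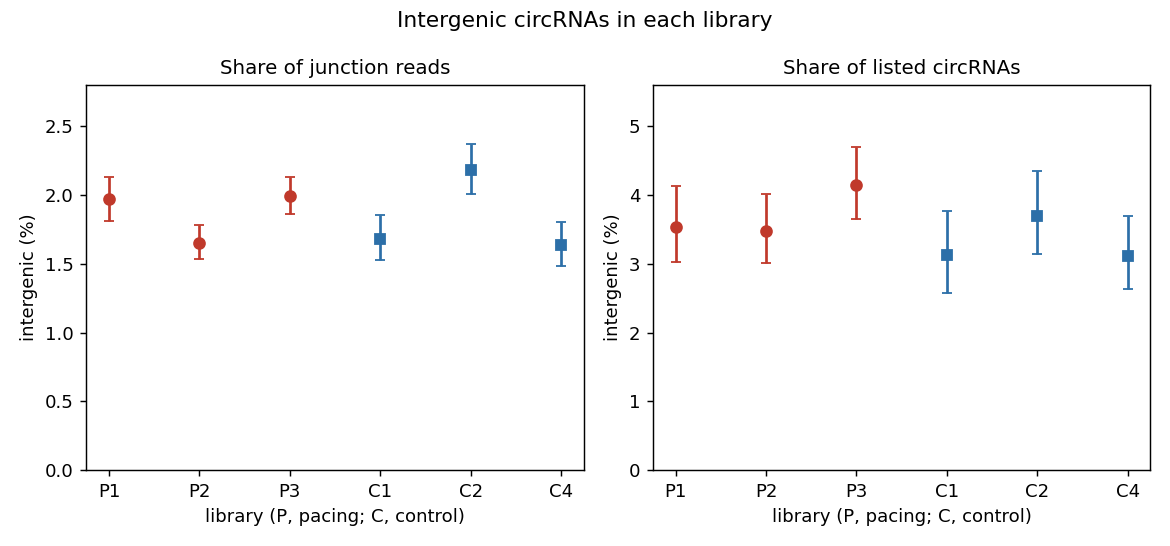
Percent of junction reads (left) and of listed circRNAs (right) that were intergenic in each pacing (P) and control (C) library, with 95% Wilson intervals of counting error as bars. The read shares lie between 1.63% and 2.18% and the listed shares between 3.12% and 4.15%, and the groups overlap in both panels.

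In numbers of circRNAs, P1 listed 153 intergenic circRNAs, P2 177 and P3 233, against 104 in C1, 140 in C2 and 131 in C4. These were 3.53%, 3.47% and 4.15% of the circRNAs listed in the pacing libraries and 3.12%, 3.70% and 3.12% of those in the control libraries. The means were 3.72% ± 0.37 for pacing and 3.31% ± 0.34 for control (SD, n = 3 each), which differed by 0.41 percentage points (exact permutation p = 0.3). With every library thinned to 22987 junction reads the difference was 0.06 percentage points. Depth and number listed did not always go together, as C4 with 23675 reads listed 4200 circRNAs of all classes, against 3783 in C2 with 24782 reads.

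Few intergenic circRNAs recurred. Reads in a single library supported 613 of the 720 (85.1%), 57 had reads in 2 libraries, 18 in 3, 14 in 4, 7 in 5 and 11 in all 6. In the exonic class 65.2% were in a single library, and in the sense overlapping class 76.1%, while the intronic and antisense classes were higher than the intergenic, at 92.2% and 93.3%. Part of this follows from read number, so the classes were set side by side at matched numbers. Of circRNAs with 6 to 9 summed reads, 40 of 76 intergenic ones (52.6%) were in 2 or more libraries, against 73.1% of exonic, 66.8% of sense overlapping, 44.7% of antisense and 43.3% of intronic ones. At 10 to 19 reads the intergenic share was 92.3% (24 of 26) and the exonic share 97.1%. The intergenic class lay between the gene-derived sense classes and the antisense and intronic ones in each range up to 19 reads, and no test was made of these shares, since circRNAs of a library are not independent.

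**Figure D2:**
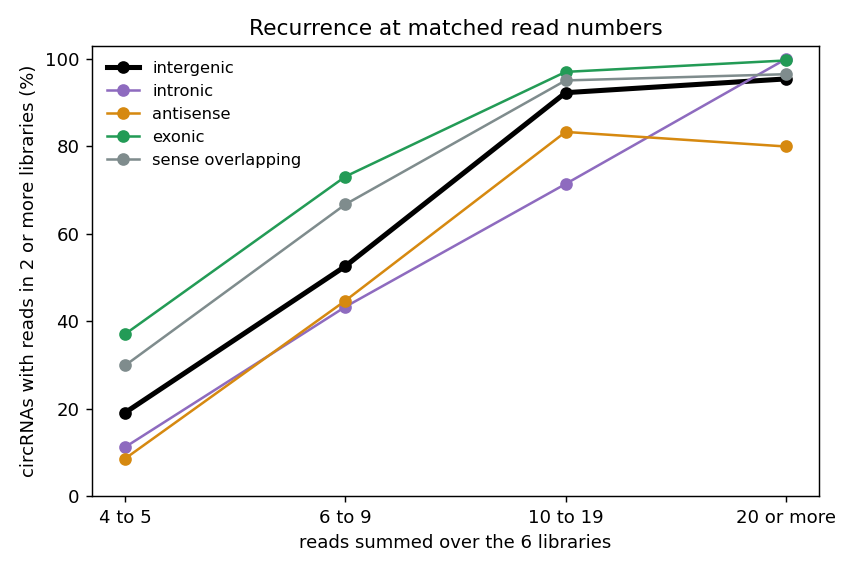
Percent of circRNAs of each class with reads in 2 or more libraries (vertical axis), by the number of reads summed over the 6 libraries (horizontal axis). The intergenic class (black) runs from 19.1% at 4 to 5 reads to 95.5% at 20 or more reads, below the exonic class throughout.

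The predicted length of an intergenic circRNA had a median of 1407.5 nucleotides, with quartiles of 376 and 8200. For all 720 it equals the distance between the joined ends, so any intron inside is counted, whereas exonic lengths (median 588) sum exons and have a median span of 9985. On the scale of span the intergenic class was therefore shorter than the exonic class, and also shorter than the sense overlapping class (median 13443). Intronic and antisense circRNAs, whose lengths are also spans, had medians of 532 and 643. The shortest intergenic circRNA, chr28:4474867-4474958 on the minus strand, was 92 nucleotides long and had 2 reads in P3. The longest, chr23:25254448-25351098 on the plus strand, spanned 96651 and had 2 reads in C4. Of the 720, 93 were at most 200 nucleotides and 223 (31.0%) exceeded 5000.

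**Figure D3:**
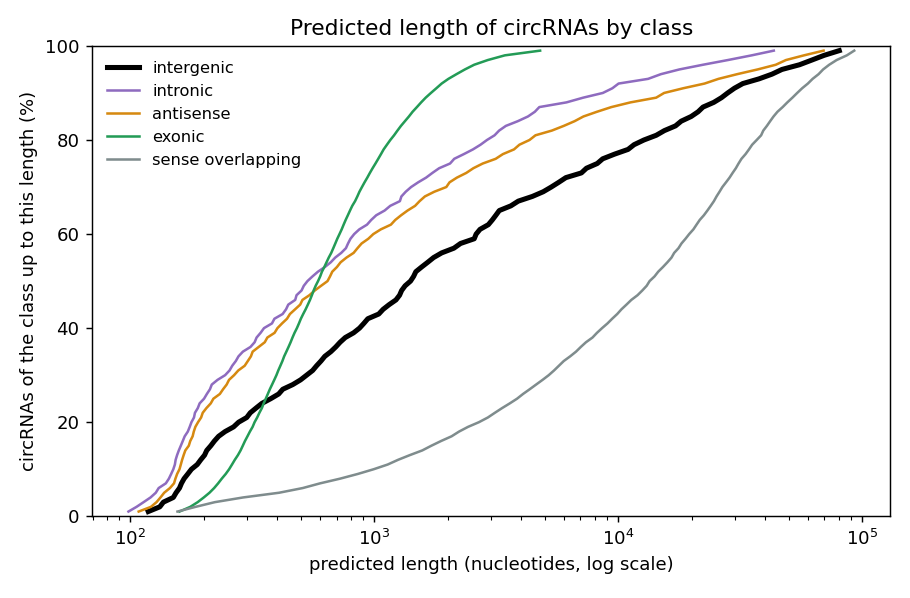
Cumulative percent of circRNAs (vertical axis) by predicted length in nucleotides (horizontal axis, log scale) for the 5 classes of the table. The intergenic curve (black, median 1407.5) rises evenly between its shortest (92) and longest (96651) member and crosses the exonic curve (median 588) near its lower quartile.

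Intergenic circRNAs found in several libraries spanned more. Those in 2 or more libraries (107) had a median length of 3263 nucleotides, against 1279 for the 613 in a single library, and 44.9% of them exceeded 5000 nucleotides against 28.5%. The same comparison gave medians of 1962 against 507.5 in the intronic class and 567 against 601 in the exonic class. These are descriptions across circRNAs, with no test.

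The 38 autosomes held 699 of the intergenic circRNAs, with a median of 16.5 each, X held 18 and unplaced scaffolds 3. Chromosome 2 had the most (50), followed by chromosome 8 (48) and chromosome 1 (36). As a share of the circRNAs of a chromosome, they ranged from 1.97% on chromosome 29 to 15.8% on chromosome 31, with a median of 4.30%. None of the 720 overlapped the span of a transcript in the mRNA or lncRNA tables, which for annotated genes follows in part from how the class is defined. Spans of circRNAs of the other classes, which carry a host transcript, did overlap 88 of the 720. For 79 the overlap was on the same strand, and 49 lay wholly within such a circRNA on their strand. Of the 718 on a chromosome or scaffold with a listed mRNA gene, the nearest lay 24.1 kb away in the median, with quartiles of 4.21 and 84.7 kb. Within 10 kb of a gene lay 263 (36.6%), of which 94 were past its 3′ end on its strand, 40 before its 5′ end on its strand and 129 on the opposite strand. Those in 2 or more libraries were within 10 kb in 23.6% of cases, against 38.9% of those in a single library.

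A pair of circRNAs of like abundance led the class. The most read, chr38:345198-345570 on the plus strand (373 nucleotides), lies 21.1 kb before ATP2B4, a plasma membrane calcium pump, on the same strand. It had 35, 32 and 30 reads in P1, P2 and P3, against 37, 5 and 13 in C1, C2 and C4. In reads per 1000000 junction reads of the library (RPM) this was 905 ± 264 in pacing and 787 ± 733 in control (SD, n = 3 each), so the control libraries spanned the pacing values, and edgeR's log2 fold change was 0.46 (SE 0.68, unadjusted p = 0.499). The next, positions 5088 to 17656 of an unplaced scaffold (12569 nucleotides), had 37, 30 and 42 reads in the pacing libraries, against 22, 4 and 10 in the control libraries. Its log2 fold change was 1.23 (SE 0.70, adjusted p = 0.401 by edgeR over all circRNAs), and C1 lay above P2 once scaled to depth.

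A group of 4 junctions on the minus strand of chromosome 2, from 18882293 to 18904378, lies 223 kb from CACNB2, an auxiliary subunit of voltage-gated calcium channels, and 87.3 kb from SLC39A12, a zinc transporter. The RefSeq annotation of another dog assembly, UU_Cfam_GSD_1.0, places no further coding or lncRNA gene between the pair. Here and below, genes that the mRNA table lists were left out when such RefSeq genes were counted. The 2 main junctions share the end at 18902286. The longer, chr2:18882293-18902286 (19994 nucleotides), had 24, 19 and 39 reads in P1, P2 and P3, against 12, 6 and 4 in C1, C2 and C4. The shorter, chr2:18886058-18902286 (16229 nucleotides), had 4, 9 and 7 reads in pacing, against 6, 2 and 4 in control. Both were read in every library, and the longer was the more read in 5 of them and level with the shorter in C4.

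The remaining junctions read in all 6 libraries were lower. On chromosome 25, the junction from 26802840 to 26808487 (plus strand) had 5, 10 and 3 reads in pacing, against 6, 14 and 16 in control. It was at 163 ± 86.1 RPM in pacing and 501 ± 215 RPM in control (SD, n = 3 each), with no overlap, and a log2 fold change of -1.33 (SE 0.90, unadjusted p = 0.137). The libraries of the following junctions overlapped between the groups. The junction chr5:81857208-81858655 (minus strand), 23.0 kb from CTCF, a factor that shapes chromatin loops, had 4, 4 and 20 reads in pacing, against 3, 11 and 5 in control. A junction near SGMS1, a sphingomyelin synthase, chr26:37348722-37350459, had 3, 12 and 8 reads in pacing, against 8, 4 and 2 in control, with means of 197 RPM in pacing and 198 RPM in control. On chromosome 1, between ZNF304 and AURKC, the junction from 100783806 to 100785963 had 4, 5 and 15 reads in pacing, against 4, 6 and 2 in control. The other 3 of the junctions in all 6 libraries were chr2:57858972-57860018, chr27:888036-888759 and chr3:15744526-15745757, with 29, 26 and 19 reads in all. Among the 12 most read, those absent from at least 1 library were on chromosome 8, chromosome X, chromosome 2 (chr2:34053469-34071514) and chromosome 1 (chr1:103961457-103983946).

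**Figure D4:**
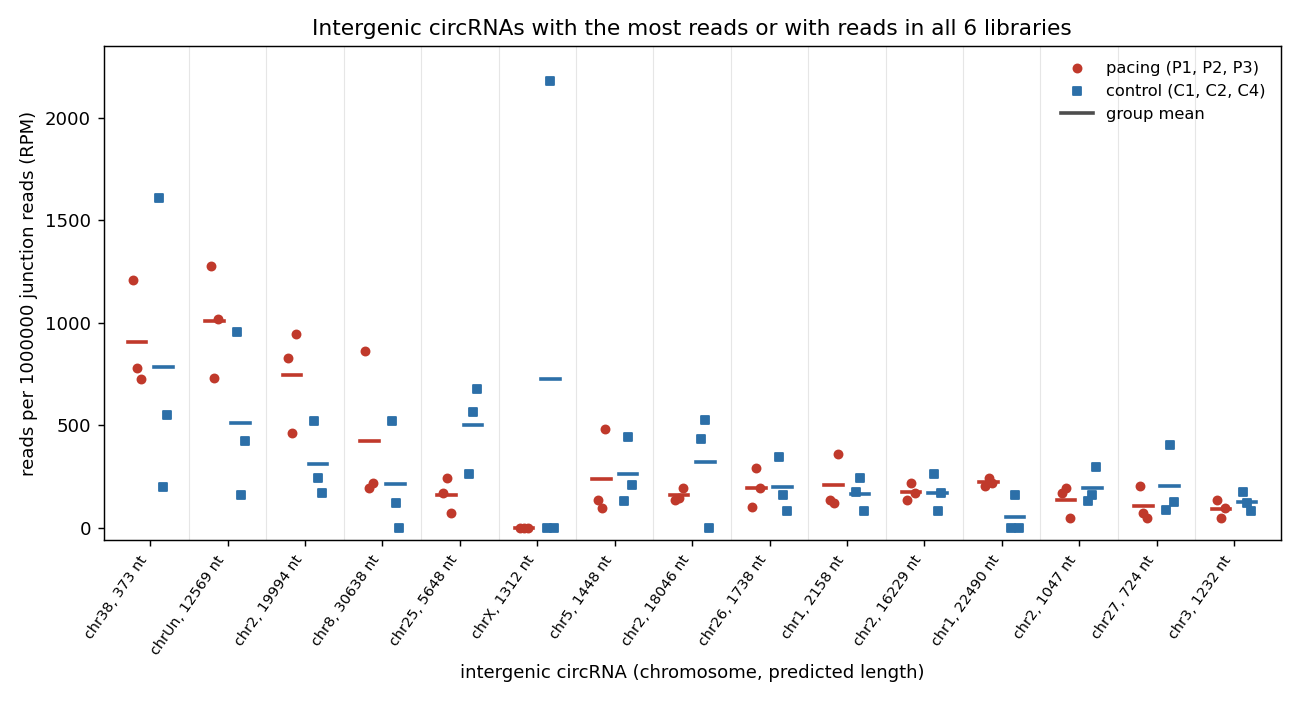
Reads per 1000000 junction reads (RPM) of the 12 intergenic circRNAs with the most reads and of the further ones with reads in all 6 libraries, each point 1 library and each line a group mean, pacing at the left of each pair. Groups overlap for most of them, the X chromosome junction stands at 2179 in C2 and at 0 elsewhere, and the chromosome 25 junction is below control in all pacing libraries.

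Intergenic junctions were grouped into loci where their spans overlapped on 1 strand. This gave 601 loci, of which 547 had a single junction and 54 had 2 or more, holding 173 junctions (24.0%) and 1181 reads (34.9%). An end shared with another intergenic junction occurred in 143 of the 720 (19.9%), against 63.9% of exonic and 40.0% of sense overlapping circRNAs sharing an end within their class, 7.62% of intronic and 4.90% of antisense ones. Shared ends are common where alternative back-splicing uses 1 splice site with several partners.

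The largest locus, chr8:14276819-14379308 on the minus strand, held 20 junctions that used 10 starts and 10 ends. INSM2 lies 57.4 kb to one side and BRMS1L 107 kb to the other. RefSeq places between these neighbours no lncRNA and a single coding gene, RALGAPA1. It encodes the catalytic subunit of a GTPase-activating complex for Ral proteins and is not listed by that name in the mRNA table used here. The 20 junctions summed to 53, 23 and 38 reads in P1, P2 and P3, against 25, 18 and 14 in C1, C2 and C4. Scaled to depth these were 1830, 561 and 920 RPM in pacing, against 1088, 726 and 591 RPM in control, and the groups overlapped. The most read, chr8:14276819-14307456 (30638 nucleotides), had 25, 8 and 9 reads in pacing, against 12, 3 and 0 in control. The second, chr8:14276819-14286247 (9429 nucleotides), which starts at the same base, had 6, 0 and 5 reads in pacing, against 11, 4 and 2 in control. Of the remaining 18, chr8:14304169-14307456 was read in every pacing library (3, 3 and 4 reads) and in no control library, and the others had 2 to 12 reads each in 1 to 3 libraries.

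A start followed within 300 bases by an end of the locus occurred 5 times, giving segments of 59, 69, 72, 124 and 126 bases. In all loci there were 18 such segments in 14 loci, from 36 to 263 bases with a median of 123.5. The limit of 300 bases sets the range of these lengths, and how many such pairs unrelated ends would give was not tested. At chr8:14286124-14286247 (124 bases), for example, 3 junctions start at the first base and 1 ends at the last.

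**Figure D5:**
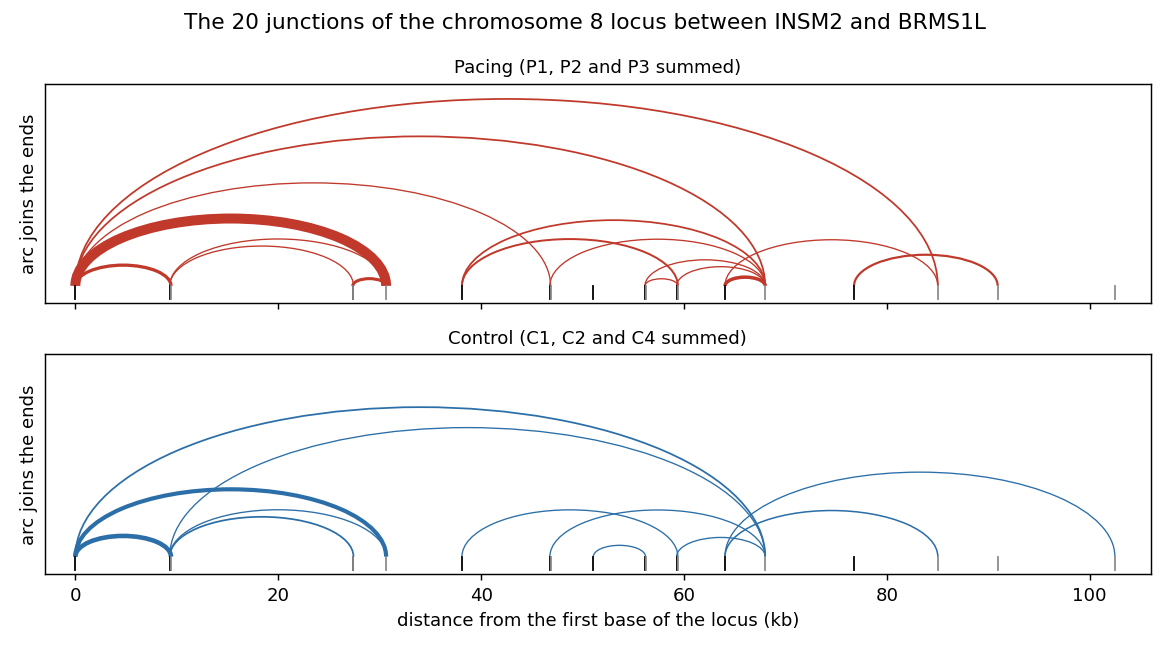
The 20 intergenic junctions of the chromosome 8 locus between INSM2 and BRMS1L, drawn as arcs that join the 2 ends of each, over distance in kb from the first base of the locus, with line width rising with summed reads in pacing (top) and control (bottom). Ticks mark starts (black) and ends (grey), and the widest arc, from 0 to 30.6 kb, has 42 reads in pacing and 15 in control.

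The next 2 loci by number of junctions were less read. On chromosome 31, 12 junctions from 22907227 to 23012487 (minus strand) between ADAMTS5, an aggrecan-cleaving protease, and N6AMT1, a methyltransferase, used 3 starts and 8 ends, and 7 of the 12 began at 22921468. They summed to 4, 6 and 12 reads in pacing, against 2, 15 and 0 in control, of which chr31:22921468-22936199 had 0, 0 and 2 in pacing, against 0, 9 and 0 in control. RefSeq places no coding gene and 6 lncRNAs between ADAMTS5 and N6AMT1, which lie 618 kb and 885 kb from the locus. The junctions chr31:22921468-22944563 and chr31:22936077-22944563 share their end with chr31:22876757-22944563. The table classes that circRNA as antisense and assigns it to the gene ENSCAFG00000027992. On chromosome 3, 8 junctions from 44166944 to 44235979 (plus strand), between NR2F2, a nuclear receptor with a role in atrial identity in mice, and MCTP2, summed to 7, 5 and 2 reads in pacing, against 7, 4 and 0 in control. RefSeq lists 1 coding gene without a name and 9 lncRNAs between the pair. NR2F2 lies 24.6 kb from the locus, and the nearest listed gene on the other side, ENSCAFG00000029940, lies 1074 kb away. Neither locus was read in C4.

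Coding and lncRNA genes that RefSeq places between the neighbours were looked for in every locus, and other types of gene were not. Neighbours here were the nearest genes of the mRNA table with a RefSeq identifier. RefSeq genes that the mRNA table lists were not counted, so a listed gene can lie between. RefSeq identifiers were found for 13898 of the 19856 genes in the mRNA table (70.0%), and 531 loci had neighbours in the same order on the other assembly. Of these, 227 had such an unlisted coding gene between the neighbours, 315 an unlisted lncRNA, with some in both counts, and 166 neither. In 13 loci, with 39 junctions and 289 reads, exactly 1 coding gene of RefSeq lay between, and it had a name. No lncRNA of RefSeq and no gene of the mRNA table lay there. The coding genes were RALGAPA1 and GTF2H3 with 2 loci each, MYH6 with 3, and LARP4B, NFILZ, MRPL57, TTLL3, DCAF16 and DDX31 with 1 each. This is a statement of gene order, since coordinates of the 2 assemblies cannot be set against each other here. At LARP4B, which encodes an RNA-binding protein, 4 junctions had 14, 10 and 11 reads in pacing, against 10, 13 and 2 in control, and chr2:34053469-34071514 among them had 4, 6 and 8 in pacing, against 10, 13 and 0 in control. The groups overlapped there, with C4 lowest. MYH6, the alpha myosin heavy chain that predominates in the atrium, stands between CMTM5 and MYH7, where 6 intergenic junctions had 0, 3 and 22 reads in pacing, against 0, 3 and 0 in control, so most of these reads came from P3.

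A further 35 intergenic circRNAs (4.86%, with 295 reads or 8.72% of intergenic reads) shared one end, on the same strand, with a circRNA that the table assigns to a gene. The partners were 33 circRNAs of 27 genes, 29 of them sense overlapping, and 15 of the 35 (42.9%) were in 2 or more libraries, against 14.9% of the whole class. Read number was not matched in this comparison, and 8 of the 35 had at least 10 reads, against 6.67% of the class. The junction near CTCF named above shares its end at 81858655 with 2 circRNAs that reach into CTCF, of 7 and 2 reads. The junction chr6:49805862-49810246, 1.11 kb past the 3′ end of DBT on its strand, had 6, 3 and 2 reads in pacing, against 2, 0 and 4 in control. It starts where a circRNA of LRRC39, a protein of the sarcomere's M-band, starts, and that circRNA had 4 reads, all in P3. The junction past DBT was chosen for naming after its values were seen. In these cases junctions that share a splice position fell into different classes of the table.

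The comparison of pacing with control asked which circRNAs changed with rapid pacing. The thresholds were a fold change of at least 2 and an unadjusted p of at most 0.05, by edgeR's quasi-likelihood test fitted on all 15990 circRNAs. Of the 720 intergenic circRNAs, 2 were higher and 2 lower in pacing. Among all circRNAs, 0.663% were called higher and 0.356% lower, and the intergenic shares were 0.278% in each direction. Scaled by DESeq2's size factors in place of TMM, 0 intergenic circRNAs were higher and 3 lower, and scaled by total junction reads 0 and 4. Among all circRNAs the size factors gave 70 higher and 78 lower, and total junction reads 70 and 85. The turn toward lower calls under these scalings was therefore not particular to the intergenic class. Without C4 the intergenic counts were 0 higher and 3 lower, against 108 and 47 among all circRNAs. After adjustment over all circRNAs (Benjamini-Hochberg), 0 intergenic circRNAs were higher and 1 was lower by edgeR, where 4 had an unadjusted p under 0.05. DESeq2 gave 0 in either direction with 1 under 0.05. For the whole table, adjustment left 3 higher and 5 lower by edgeR. In bulk tissue, fewer cells of a type and less RNA per cell cannot be told apart.

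The strongest call rested on 1 library. The junction chrX:110617666-110618977 on the plus strand (1312 nucleotides), 254 kb from SOX3 and 447 kb from LDOC1, had 0, 0 and 0 reads in P1, P2 and P3, against 0, 54 and 0 in C1, C2 and C4. Its log2 fold change was -7.33 (adjusted p = 0.000225 by edgeR), and the summed control level was at least 28.0-fold higher than 3 reads over the pacing group allow. It was listed at 0 in 5 of 6 libraries, DESeq2 gave an unadjusted p of 0.067, and without C2 there is no read to test. Without C1 and without C4 the log2 fold changes were -7.98 and -7.93. C2 was also the library with the highest blood markers and one of the pair with fat markers, and their part in this value was not tested.

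The other lower call, chr18:46945406-46946731 on the minus strand (1326 nucleotides), lies 9.78 kb past the 3′ end of CARS, the cysteinyl-tRNA synthetase, on its strand. It had 2, 0 and 0 reads in pacing, against 3, 15 and 5 in control, and every control library was above every pacing library. The log2 fold change was -3.50 (SE 1.44, unadjusted p = 0.0152, adjusted p = 0.401 by edgeR), and the unadjusted p was 0.0154 without C4. In edgeR's quasi-likelihood test the call was lost without C2 (log2 fold change -2.55, unadjusted p of 0.266), without P2 (-2.94, p of 0.0565) and without P3 (-2.90, p of 0.0614). It was also lost with C4 counted as pacing (log2 fold change -2.37, unadjusted p of 0.0597, edgeR). Without P1 the log2 fold change was -6.16. CARS itself was at 5.78, 4.45 and 5.44 FPKM in pacing, against 5.50, 6.95 and 4.12 FPKM in control, and overlapped between the groups. NAP1L4 lies 10.1 kb to the other side of the junction, also on its strand. It was at 65.4, 77.8 and 66.0 FPKM in pacing, against 102, 95.8 and 89.6 FPKM in control. NAP1L4 was thus lower in every pacing library than in every control library, as the junction was, and any link was not tested.

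Of the calls toward pacing, chr8:3641864-3641998 on the minus strand (135 nucleotides), in the interval between CMTM5 and MYH7, had 0, 0 and 16 reads in pacing, against 0, 0 and 0 in control, so P3 alone carried it. The log2 fold change was 5.17 (SE 2.43, unadjusted p = 0.0336, adjusted p = 0.401 by edgeR), at least 3.42-fold higher against 3 reads over the control group, and the call was lost without any 1 of the controls (unadjusted p of 0.0706 without C1, 0.0654 without C2 and 0.0726 without C4, edgeR). With C4 counted as pacing the call was lost as well (unadjusted p of 0.0815, edgeR). Without P3 the junction had no reads. Its span lay wholly inside 7 circRNAs of other classes on the same strand, and MYH7 was the only gene named for the circRNAs that overlapped it. MYH7, the beta myosin heavy chain, was at 247, 664 and 255 FPKM in pacing, against 137, 117 and 2264 FPKM in control. The highest MYH7 level was in C4, where no intergenic junction of this interval was read.

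The other, chr2:18882293-18902286, lies 89.4 kb from SLC39A12, its nearest listed gene, and 223 kb from CACNB2. This junction was read in every library at 745 ± 251 RPM in pacing and 311 ± 186 RPM in control (SD, n = 3 each). Its log2 fold change was 1.51 (SE 0.77, unadjusted p = 0.0492, adjusted p = 0.401 by edgeR), and C1 at 522 RPM lay above P2 at 464 RPM. The call was lost without P1 (unadjusted p = 0.101, edgeR), P3 (0.125), C2 (0.0718) or C4 (0.0784), and with DESeq2's size factors (0.0953). With C4 counted as pacing it was lost too (unadjusted p = 0.266, edgeR). CACNB2 was at 28.2, 36.2 and 47.6 FPKM in pacing, against 21.6, 23.9 and 28.6 FPKM in control, and C4 lay above P1.

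In RPM, 4 intergenic circRNAs had every pacing library above every control library and 4 had every one below, 0.556% of the class in each direction. Across all circRNAs these shares were 1.06% above and 0.575% below. The 4 above were chr1:103961457-103983946 (6, 10 and 9 reads in pacing, against 0, 4 and 0 in control), the chromosome 8 junction at 14304169, and 2 on chromosome 15. Both chromosome 15 junctions were named after their values were seen. One, chr15:3747744-3748061, lies 0.877 kb from NDUFS5 and had 3, 7 and 3 reads in pacing, against 0, 0 and 0 in control, which is at least 2.78-fold higher against 3 reads over the control group. The other, chr15:34890958-34901661, lies 40.4 kb from TMCC3 and had 4, 4 and 2 reads in pacing, against 0, 0 and 0 in control. These and the chromosome 8 junction were the 3 intergenic circRNAs listed in all pacing libraries and in no control library, 0.417% of the class, against 0.600% of all circRNAs. The opposite pattern had 0 of the 720, against 0.150% of all circRNAs. None of the 3 passed the test (unadjusted p of 0.0524, 0.0882 and 0.0925). The 4 below were the chromosome 25 and chromosome 18 junctions above and 2 others, also named after their values were seen. One of these, chr4:60806095-60810829 on the minus strand, had 0, 2 and 2 reads in pacing, against 10, 7 and 2 in control (unadjusted p = 0.0725). The other, chr12:10535374-10556923 on the minus strand, had 0, 0 and 2 reads in pacing, against 2, 3 and 2 in control (unadjusted p = 0.414). In both, a pacing library and C4 were tied at 2 reads. Their groups lay apart in RPM only because 2 reads are at most 69.1 RPM in pacing libraries and at least 80.7 RPM in control libraries.

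Every pacing library was deeper than every control library, and reads in pacing libraries alone supported 401 of the intergenic circRNAs (55.7%), against 46.0% of all 15990 circRNAs. Control libraries alone listed 233 (32.4%), against 30.8% of all, and 86 (11.9%) were in both groups, against 23.2% of all. Of the 720, 440 (61.1%) had a positive log2 fold change, with a median of 2.43, against 57.5% and 1.02 for all circRNAs, and 613 of the 720 had reads in a single library. A junction with 2 reads in P2 and 0 elsewhere, such as chr31:22921468-23012487, has this log2 fold change of 2.43. The median of 2.43 is therefore not a measure of the size of a change with pacing. Among the 50 with reads in 3 or more libraries, 28 had a positive log2 fold change, with a median of 0.34, against 1542 of the 2553 such circRNAs of all classes, with a median of 0.30. Scaling by total junction reads lowered both medians, to 0.07 and 0.03, so among these 50 the median was close to that of the whole table under either scaling.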

How the data were processed

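Right atrial total RNA libraries (3 pacing, 3 control) were described from the deposited circRNA table, whose junction read counts the authors obtained with Bowtie2 on canFam3 and find_circ under Ensembl transcripts, after trimming with cutadapt 1.9.3. Intergenic junctions were selected by the authors' class column. The deposited FPKM values of mRNAs and lncRNAs (HISAT2, Cufflinks and Cuffdiff are named, options not given in the sources used here) served for neighbours and markers, and the deposited predicted lengths are in nucleotides. Not used were 18 further per-sample columns (normalized values and counts in the same tables) and the small RNA tables. Columns for the 3 controls are named C1, C2 and C4 and were taken as control by name.

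All 15990 circRNAs were fitted with edgeR 4.0.16 (quasi-likelihood, TMM, no filter), called at a fold of 2 and an unadjusted p of 0.05, as the study's thresholds were, and checked on simulated data. DESeq2 1.42.0 was an alternative. Shares were compared by exact permutation tests over the 6 libraries (smallest p 0.1, scipy 1.17.1), with Wilson intervals at 95%. Folds against a group with no reads used a floor of 3 reads over the group. Depth was 22987 to 41299 junction reads, at which 2 reads are 48.4 to 87.0 RPM (reads per 1000000 junction reads). Starts in the mRNA and lncRNA tables count from 0 and were moved by 1 base. RefSeq names and gene order come from assembly UU_Cfam_GSD_1.0. The study describes no pairing of control with pacing dogs, so the groups were compared unpaired. The circRNAs and lists were chosen with earlier results of these data known. Named circRNAs were the 12 with the most reads, those in all 6 libraries, up to 10 calls in each direction, the shortest and longest, and those of the 3 loci with the most junctions.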

Additional observations from a re-analysis of the deposited data

How the results depend on the processing

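The listed share of intergenic circRNAs kept its direction under all 12 alternatives, from 0.0633 percentage points (thinned) to 0.599 (without C2). The difference in read share changed sign when C4 was counted as pacing (-0.120 percentage points), and it ran from -0.0605 (without C4) to 0.212 (without C2) when libraries were left out one at a time. The number called higher, 2, was 1 with at least 10 summed reads and 0 with C4 as pacing, with DESeq2, with edgeR's exact test and with either other scaling. The number called lower, 2, was 5 with C4 as pacing, 1 with DESeq2 and 4 with total junction reads. Among all circRNAs, 117 were higher and 91 lower with C4 as pacing, 10 and 14 with DESeq2, and 70 and 85 with total junction reads. Leaving out single libraries gave 0 to 4 intergenic circRNAs higher and 0 to 4 lower. Without C1, 4 were higher and 4 lower, and without P3, 0 and 1. Without P2, 2 were higher and 1 lower, without C2, 1 and 0, without P1, 1 and 2, and without C4, 0 and 3. The causes were not tested. Without the X chromosome junction, an alternative chosen after seeing the data, the read share differed by 0.11 percentage points (p = 0.5, exact permutation). No paired analysis was made, because the study divided the dogs at random into separate control and pacing groups. Depth limits these comparisons, since 429 of the 720 intergenic circRNAs had only 2 reads in all.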
